A study of Homo sapiens with 5 samples.

Results

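The 9 genes described here make, recycle or use tetrahydrobiopterin, and they are GCHFR, GCH1, PTS, SPR, QDPR, PCBD1, PCBD2, TH and TPH1. They were matched by gene symbol and gene identifier, each to 1 of the 64837 entries of the count tables. The set was chosen by measured values of this same comparison, the rise of GCHFR with the co-culture, and filled with its pathway once those results were known, so the values of the 9 genes below are a description and carry no p-value. A filter on low counts kept 8 of the 9, and TH was listed at 0 in every library.

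Tetrahydrobiopterin is a pterin cofactor that cells build from GTP. GTP cyclohydrolase (GCH1) makes the committed step, and 6-pyruvoyltetrahydropterin synthase (PTS) and sepiapterin reductase (SPR) finish the molecule. The aromatic amino acid hydroxylases, which start the synthesis of catecholamines and serotonin, and the nitric oxide synthases consume or require it, and the pterin released by the hydroxylases is returned to the active form by PCBD1 or PCBD2 and then QDPR. The small protein GCHFR binds GCH1 and lowers its activity when the cofactor is plentiful, and phenylalanine relieves that block.

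NCI-H209 is an established human small cell lung cancer (SCLC) line, a tumour type with neuroendocrine traits. RNA was measured in 3 control libraries of untreated cells and in 2 libraries of cells kept for 24 h with human brain microvascular endothelial cells (HBMECs) on the other side of a membrane. All 5 libraries come from the same line, which was grown in RPMI-1640 with serum. The endothelial cells were grown with an added serum supplement, and the medium in their insert during the co-culture is not given in the sources used here. The labels name neither an insert without endothelial cells for the controls nor separate cultures behind the replicate numbers. P-values therefore measure the spread between these samples, which may be technical. In bulk RNA of this kind, fewer cells expressing a gene and less RNA per cell cannot be told apart.

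Reads counted on genes, on the expected strand, numbered 17317045 to 19157348 in control against 15457071 and 18918787 with co-culture, which is 30.7% to 33.6% of all reads of a library. Between 92.3% and 93.1% of the reads on genes lay on the strand expected of the directional kit. Unmapped reads took 8.13% to 8.48% of a control library, against 16.8% and 15.9% with co-culture. Mapped reads that fit no gene on the expected strand took 47.3% to 51.2% of a control library, against 40.1% and 40.8% with co-culture. Whether either difference has a part in any result below was not tested. Levels are given in CPM, reads on a gene scaled to a common total of reads on genes, after TMM scaling, which evens out differences in library composition. Differences are log2 fold changes, positive where the co-cultured group was higher, with the standard error (SE) of the fit. A gene is said to be called when its p in the quasi-likelihood test of edgeR was under 0.05 once adjusted over 20360 genes by Benjamini and Hochberg's method.

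GCHFR (ENSG00000137880.5) lies on chromosome 15 from 40764020 to 40767710 on the plus strand of GRCh38, in the GENCODE 29 annotation. Its exons run through the last part of another protein-coding gene, DNAJC17, which lies on the minus strand from 40765155 to 40807478. Of the 1531 exonic bases of GCHFR, 1151 (75.2%) are also exonic in DNAJC17. The coding sequence of transcript GCHFR-201 is shown because it makes the overlap visible in the message itself. It spans chr15:40764181-40767349 in 3 exons on the plus strand, and its 255 bases include the stop codon. Capitals mark the 219 bases that lie opposite DNAJC17 exons, and lower case marks the remaining bases, which only GCHFR claims.

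GCHFR-201 coding sequence: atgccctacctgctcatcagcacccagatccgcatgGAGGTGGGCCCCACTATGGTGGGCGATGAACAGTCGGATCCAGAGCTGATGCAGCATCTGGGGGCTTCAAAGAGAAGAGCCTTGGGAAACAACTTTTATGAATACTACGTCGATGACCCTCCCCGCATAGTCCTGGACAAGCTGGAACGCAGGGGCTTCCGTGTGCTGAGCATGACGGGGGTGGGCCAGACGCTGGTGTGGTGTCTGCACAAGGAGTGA

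**Figure D1:**
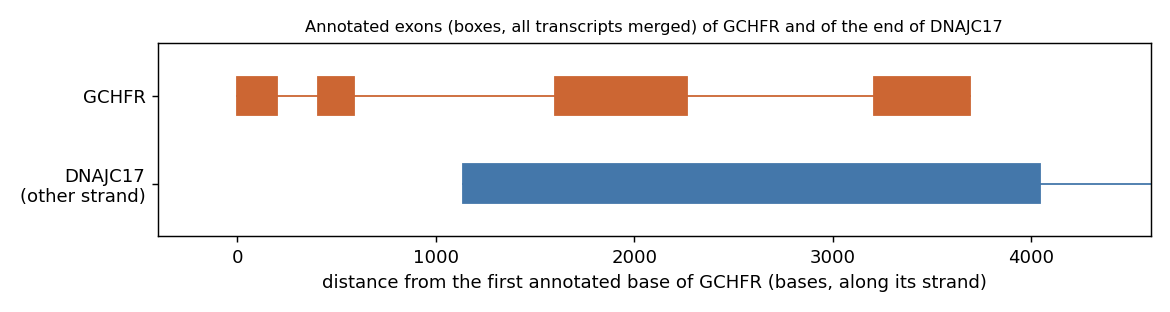
Annotated exons of GCHFR (upper row) and of the end of DNAJC17 (lower row, opposite strand) against the distance in bases from the first annotated base of GCHFR. Boxes are exons merged over all transcripts and lines are introns, and the long DNAJC17 exon covers 1151 of the 1531 exonic bases of GCHFR.

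Because of this overlap, the GCHFR count depends on whether the strand of a read is used. On the expected strand, GCHFR had 128, 133 and 150 reads in control against 390 and 283 after co-culture. Counted without regard to strand, GCHFR kept 6, 8 and 9 reads in control against 9 and 6 after co-culture, between 2.12% and 6.02% of the expected-strand count. The rise is plain on the expected strand and absent from the counts without strand, in which a read that fits exons of both genes is assigned to neither. In those counts GCHFR did not pass the filter on low counts. With a filter of at least 1 count in any library, an alternative added after seeing the data, its log2 fold change without strand was 0.17 (SE 0.57).

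Reads were also counted on the other strand of each gene. Reads opposite to GCHFR numbered 20, 34 and 27 in control against 17 and 23 after co-culture, so they did not move with the rise. DNAJC17, a gene of the heat shock protein family with J domains, had 193, 191 and 207 reads on its own strand in control against 182 and 155 after co-culture. Its log2 fold change was −0.05 (SE 0.13, adjusted p = 0.776), and without strand it was 0.15. Reads opposite to DNAJC17, the strand on which GCHFR lies, numbered 136, 146 and 156 in control against 411 and 311 after co-culture. These opposite reads made up 41.3% to 69.3% of all stranded reads on DNAJC17, and they were more numerous in both co-cultured libraries than in all controls. They include the GCHFR reads that fit exons of both genes, so they are not a series separate from the GCHFR count.

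**Figure D2:**
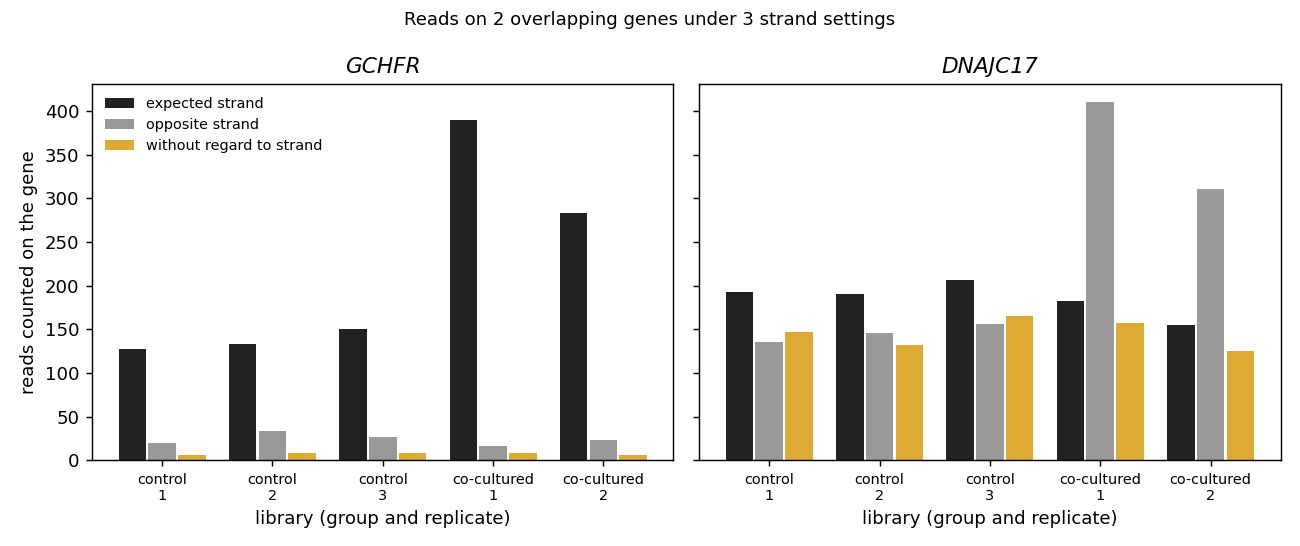
Reads counted on GCHFR (left) and DNAJC17 (right) in each of the 5 libraries, with a bar for the expected strand, the opposite strand and the count without regard to strand. GCHFR rises from 128 to 150 reads in control to 283 and 390 in co-cultured libraries on the expected strand only. The opposite strand of DNAJC17, where GCHFR reads that fit exons of both genes are counted again, goes from 136 to 156 reads to 311 and 411.

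The other tetrahydrobiopterin genes were little affected by the strand setting. The count without strand was 100% to 100.4% of the expected-strand count for GCH1 and QDPR, 100.3% to 101.1% for SPR, 101.3% to 103.4% for PCBD2 and 103.5% to 105.5% for PCBD1. TPH1 kept 100% to 103.2%. PTS kept 95.4% to 97.3%, and 177 of its exonic bases (5.65%) lie opposite the pseudogene RPS6P16. PCBD2 shares 581 exonic bases (8.10%) with CATSPER3 and TPH1 shares 285 (5.07%) with AC055860.1, both on the same strand, where stranded counting cannot separate them.

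GCHFR, the regulator of GCH1, was the member with the highest log2 fold change. Its level was 6.81, 7.35 and 7.68 CPM in control against 21.3 and 18.7 CPM after co-culture. Both co-cultured libraries lay well above all controls, and the groups did not overlap. Mean ± SD was 7.28 ± 0.442 CPM (n = 3) and 20.0 ± 1.85 CPM (n = 2). The fitted log2 fold change was 1.46 (SE 0.13), and it lay between 1.37 and 1.55 with any 1 library left out. Of all genes tested, 97.4% had a log2 fold change below that of GCHFR.

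GCH1 (ENSG00000131979.18, chromosome 14, 54842008 to 54902852, minus strand), the enzyme that GCHFR binds, moved in the same direction. It had 25.0, 20.3 and 21.8 CPM in control against 43.8 and 44.3 CPM after co-culture. The co-cultured libraries nearly coincided and lay above all controls. The means were 22.4 ± 2.43 CPM (SD, n = 3) and 44.0 ± 0.338 CPM (SD, n = 2), and the fitted log2 fold change was 0.98 (SE 0.11), or 0.91 to 1.07 with any 1 library left out.

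The 2 enzymes downstream of GCH1 differed far less between the groups. PTS (ENSG00000150787.7, chromosome 11, 112226365 to 112269955, plus strand) makes the intermediate that SPR reduces, and it had 37.0, 37.4 and 32.5 CPM in control against 40.8 and 41.0 CPM. Its groups did not overlap, its log2 fold change was 0.20 (SE 0.095), and it was not called. SPR (ENSG00000116096.5, chromosome 2, 72887360 to 72892158, plus strand) carries out the last reduction, and it had 21.2, 20.6 and 20.6 CPM in control against 24.3 and 25.0 CPM. The controls were tight and lay below both co-cultured libraries, the log2 fold change was 0.24 (SE 0.098), and SPR was not called.

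Of the recycling genes, QDPR was higher, PCBD1 overlapped and PCBD2 had lower values. QDPR (ENSG00000151552.11, chromosome 4, 17460261 to 17512234, minus strand), the dihydropteridine reductase that restores the active cofactor, had 12.6, 11.7 and 11.4 CPM in control against 17.2 and 16.6 CPM after co-culture. The groups did not overlap, the means were 11.9 ± 0.615 CPM (SD, n = 3) and 16.9 ± 0.411 CPM (SD, n = 2), and the log2 fold change was 0.50 (SE 0.12). QDPR was called with all 5 libraries but not without co-cultured replicate 1 or without co-cultured replicate 2.

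PCBD1 (ENSG00000166228.8, chromosome 10, 70882280 to 70888784, minus strand) encodes the dehydratase that acts before QDPR. It had 29.2, 25.0 and 22.5 CPM in control against 29.1 and 30.1 CPM after co-culture. Control replicate 1 was as high as the co-cultured libraries, so the groups overlapped, and the log2 fold change was 0.21 (SE 0.12). PCBD2 (ENSG00000132570.14, chromosome 5, 134904906 to 135007959, plus strand), its paralogue, had 22.3, 16.5 and 17.2 CPM in control against 12.4 and 15.3 CPM after co-culture. Its groups did not overlap and its log2 fold change was −0.44 (SE 0.16), but the control values were spread and it was not called.

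The 2 users of the cofactor among the 9 genes were low or listed at 0. TPH1 (ENSG00000129167.9, chromosome 11, 18017564 to 18042426, minus strand), the tryptophan hydroxylase of cells outside the brain's serotonin neurons, had 98, 63 and 62 reads in control against 64 and 65 after co-culture. These correspond to 5.21, 3.48 and 3.17 CPM against 3.50 and 4.29 CPM. The groups overlapped, and the log2 fold change of −0.03 (SE 0.26) became 0.22 without control replicate 1 and 0.13 without co-cultured replicate 1.

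TH (ENSG00000180176.14, chromosome 11, 2163929 to 2171877, minus strand), the tyrosine hydroxylase that starts catecholamine synthesis, was listed at 0 in all 5 libraries on both strands. A listed 0 is not read here as a lack of transcript, because some genes that every cell uses are also at or near 0 in these tables. PRPF8, a core component of the spliceosome, had 4, 1 and 2 reads in control against 0 and 0 after co-culture. YWHAE had 5 reads over the 5 libraries together. On the same chromosome as TH, INS was listed at 0, whereas ASCL2 had 102 reads and CD81 had 7936 reads over the 5 libraries.

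**Figure D3:**
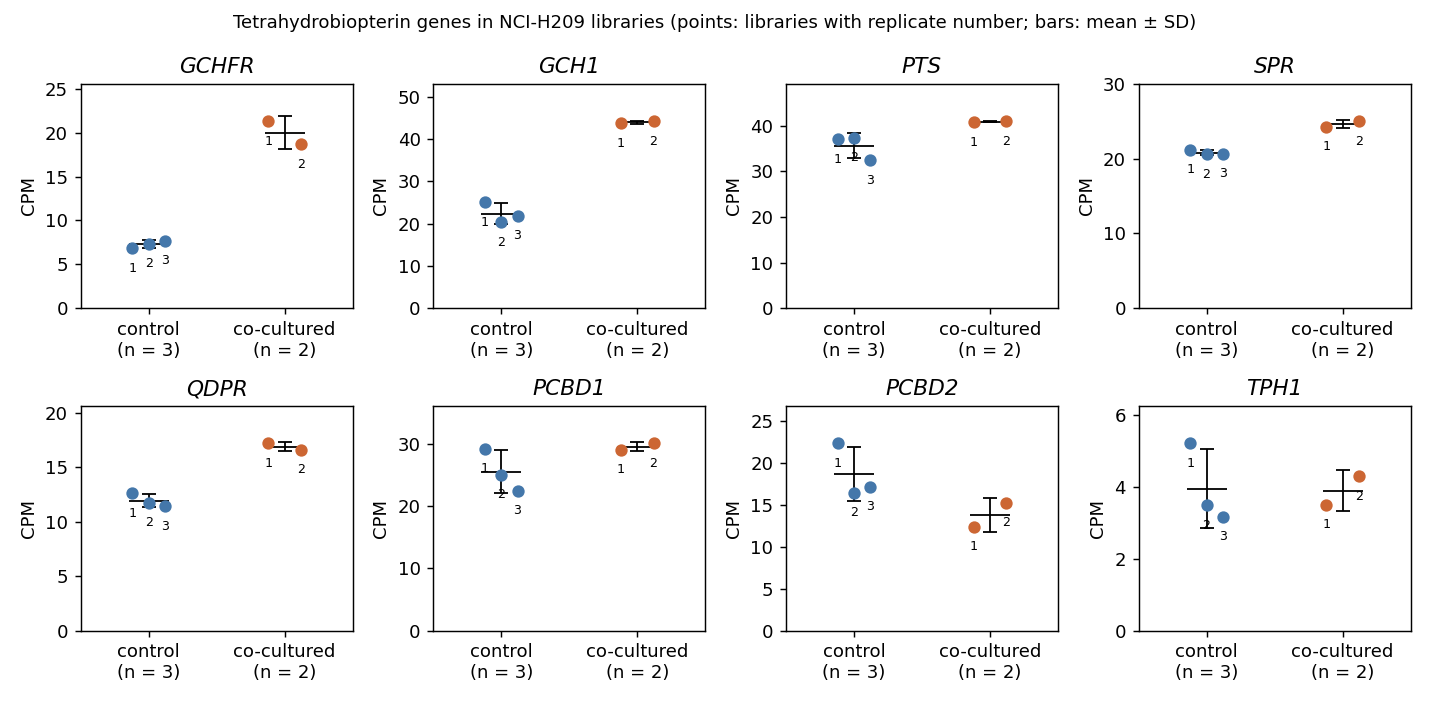
Level in CPM of the 8 tetrahydrobiopterin genes that were tested, in control (n = 3, blue) and co-cultured (n = 2, orange) libraries, with points for libraries, digits for replicate numbers and bars for mean ± SD, and every axis starting at 0. GCHFR (7.28 to 20.0 CPM) and GCH1 (22.4 to 44.0 CPM) show the widest gaps between the group means, and the points of PCBD1 and TPH1 overlap between the groups.

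By the threshold used for all genes, 3 of the 8 were called, GCHFR, GCH1 and QDPR, all of them higher. Since GCHFR was picked for its rise in this comparison, this count only describes the set. Among all 20360 genes tested, 33.4% were called, and those called higher made up 18.4%. The groups did not overlap for 6 of the 8 genes, as for 59.4% of all genes tested. The median log2 fold change of the 8 genes was 0.23, within a range of −0.44 to 1.46, and that of all genes tested was −0.03. These counts moved with single libraries. Without control replicate 1, 6 of the 8 were called, with PTS, SPR and PCBD1 added, when 49.5% of all genes tested were called. Without co-cultured replicate 1 or without co-cultured replicate 2 only GCHFR and GCH1 were called, when 12.8% and 14.2% of all genes tested were.

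Levels can be compared roughly between genes once divided by the length of the merged exons, as CPM per kilobase. The merged length can exceed that of every transcript. GCHFR has 1531 merged bases, but its annotated transcripts have 412 to 785 bases. A shorter divisor would raise its level, so its place in the order depends on this choice. In control, the order ran from PCBD1 at 15.9 ± 2.10 CPM per kilobase through SPR at 14.1 ± 0.240, PTS at 11.4 ± 0.875, GCH1 at 7.58 ± 0.822, GCHFR at 4.76 ± 0.289, QDPR at 3.89 ± 0.201 and PCBD2 at 2.601 ± 0.447 to TPH1 at 0.703 ± 0.195 (SD, n = 3 for each). PCBD1 and SPR overlapped across the control libraries, and no other neighbours in this order did. In the co-cultured libraries, PCBD1 at 18.3 ± 0.458 and SPR at 16.7 ± 0.367 CPM per kilobase still led. GCH1 followed at 14.9 ± 0.115 and GCHFR at 13.1 ± 1.21, which overlapped with PTS at 13.1 ± 0.0559 (SD, n = 2 for each). On this scale GCH1 stood below PTS in every control library and above it in both co-cultured libraries. The order of these 2 genes also depends on the lengths used as divisors. QDPR at 5.52 ± 0.135, PCBD2 at 1.93 ± 0.281 and TPH1 at 0.692 ± 0.100 kept their places at the end.

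The balance of the regulator to its enzyme can be read from the same scale. The ratio of GCHFR to GCH1, both in CPM per kilobase, was 0.524, 0.699 and 0.679 in control against 0.938 and 0.814 after co-culture. Both co-cultured values lay above all controls. The size of the ratio depends on the merged exon lengths, while the order of the libraries does not. This is a ratio of transcript levels, and neither protein was measured.

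The genes whose pattern over the 5 libraries was most like that of GCHFR were EPAS1, JAG1 and the antisense RNA AC010468.2. Likeness was the root mean square difference of log2 CPM centred on each gene's mean, over 20359 other genes, and libraries of a group make up most of the pattern. EPAS1, a hypoxia-inducible transcription factor, differed from GCHFR by 0.0454 and had 17.1, 16.9 and 18.0 CPM in control against 51.0 and 45.6 CPM after co-culture. JAG1, a Notch ligand, differed by 0.0482, with 5.69, 6.52 and 6.91 CPM against 17.8 and 15.6 CPM. AC010468.2 differed by 0.0503 at a far lower level, with 0.319, 0.387 and 0.358 CPM against 1.20 and 1.06 CPM. Among the tetrahydrobiopterin genes, GCH1 came closest, at rank 524 with a difference of 0.277, and QDPR followed at rank 2473.

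Beyond the 9 genes, 46 annotated genes around the pathway were taken from lists of enzymes, partners and transporters, and 35 of them were tested. Of these, 14 were called, 11 higher and 3 lower, beside 33.4% of all genes tested (3750 higher and 3059 lower). Their median log2 fold change was 0.21, and the groups did not overlap for 23, where they did not overlap for 59.4% of all genes tested. The number of calls moved with the libraries used, as it did for all genes tested. Without control replicate 1, 2 and 3 it was 20, 13 and 17, when 49.5%, 25.3% and 25.9% of all genes tested were called. Without either co-cultured library, which leaves 1 in that group, fewer were called, as among all genes tested.

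DNAJC12, the co-chaperone that folds the aromatic amino acid hydroxylases, had the highest log2 fold change of these genes. Its counts were 688, 488 and 597 in control against 1540 and 1270 after co-culture. Both co-cultured libraries exceeded every control, with means of 31.4 ± 4.85 CPM (SD, n = 3) and 84.0 ± 0.197 CPM (SD, n = 2) and a log2 fold change of 1.42 (SE 0.12, adjusted p = 7.12e-05 in the edgeR fit).

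The list of partners of the hydroxylases and of PCBD1 had 8 genes tested, of which 7 rose, where 18.4% of all genes tested were called higher. With either co-cultured library left out, YWHAB, YWHAQ and YWHAZ lost their calls, when fewer of all genes tested were called too. Besides DNAJC12 the genes that rose were adaptor proteins that bind phosphorylated partners, the hydroxylases among them in some cases. SFN rose by a log2 fold change of 1.08 (adjusted p = 0.000973), YWHAH by 0.76 (adjusted p = 0.00382), YWHAG by 0.75 (adjusted p = 0.00171) and YWHAB by 0.74 (adjusted p = 0.0112). YWHAZ rose by 0.52 (adjusted p = 0.00860) and YWHAQ by 0.47 (adjusted p = 0.0107). These adaptors serve many proteins in every cell, and YWHAZ had 18567 to 29324 reads per library.

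The other enzymes that need tetrahydrobiopterin had at most 237 reads in a library. Of these, 1 of the 5 tested was called, where 33.4% of all genes tested were. NOS1, the neuronal nitric oxide synthase, had 142, 189 and 237 reads in control against 88 and 89 after co-culture. Every control lay above both co-cultured libraries, with means of 10.0 ± 2.32 CPM (SD, n = 3) and 5.34 ± 0.756 CPM (SD, n = 2) and a log2 fold change of −0.92 (SE 0.22, adjusted p = 0.0126). The NOS1 call needed both co-cultured libraries. Its log2 fold change was −0.77 without co-cultured replicate 1 and −1.06 without co-cultured replicate 2. NOS2, the inducible synthase, differed by −0.87 on the log2 scale (adjusted p = 0.122) and was not called.

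NOS3, the endothelial synthase, had 41, 39 and 4 reads in control against 3 and 7 after co-culture (adjusted p = 0.0849). Control replicate 3 was thus as low as the co-cultured libraries, and the opposite strand of NOS3 held 61 to 113 reads. TPH2, the tryptophan hydroxylase of neurons, had 14 to 34 reads and differed by 0.09 on the log2 scale (adjusted p = 0.900). AGMO, the enzyme that cleaves ether lipids, had at most 7 reads in a library and was not tested.

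Among the genes that supply GTP, the substrate of GCH1, 3 of 6 were called, in both directions, where 33.4% of all genes tested were. With either co-cultured library left out, IMPDH1 and IMPDH2 lost their calls, and GUK1 lost its call without co-cultured replicate 1. Fewer of all genes tested were called in those fits too. GUK1, the guanylate kinase, rose by a log2 fold change of 0.54 (adjusted p = 0.00387). The 2 IMP dehydrogenases moved in opposite directions, of which IMPDH1 rose by 0.43 (adjusted p = 0.0126) and IMPDH2 fell by 0.42 (adjusted p = 0.00599). IMPDH2 was the more abundant in control, at 29.6 ± 2.18 CPM per kilobase against 4.78 ± 0.198 for IMPDH1 (SD, n = 3).

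Of the reductases beside the main route, some of which can replace SPR in part, 2 of 6 were called, a share like the 33.4% of all genes tested. Neither kept its call with either co-cultured library left out, when fewer of all genes tested were called too. CBR1, a carbonyl reductase, rose by a log2 fold change of 0.60 (adjusted p = 0.0118), with means of 11.8 ± 1.70 CPM in control and 17.9 ± 1.38 CPM after co-culture (SD, n = 3 and n = 2). DHFR2 rose by 0.30 (adjusted p = 0.0246), a call that ended under upper-quartile scaling (adjusted p = 0.0670).

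DDC, the decarboxylase that acts after TH and after the tryptophan hydroxylases, was the called gene of the monoamine list. It was 1 of 6 tested, where 33.4% of all genes tested were called. It had 1824, 1204 and 1314 reads in control against 845 and 866 after co-culture. Both co-cultured libraries lay below every control, with means of 76.9 ± 17.4 CPM (SD, n = 3) and 51.7 ± 7.79 CPM (SD, n = 2) and a log2 fold change of −0.58 (SE 0.17, adjusted p = 0.0286). Its log2 fold change was −0.37 without control replicate 1, the highest control. It was −0.42 without co-cultured replicate 1 and −0.73 without co-cultured replicate 2, and DDC lost its call in both of these fits. With all 5 libraries counted without strand, DDC just missed the threshold (adjusted p = 0.0504). Of the 13 genes in that list, 6 had at most 3 reads in every library, SLC6A2 and ASMT among them at 0. The 4 regulators of nitric oxide synthases that were tested, NOS1AP, NOSIP, DDAH1 and DDAH2, were not called, with log2 fold changes of 0.44, −0.15, 0.15 and −0.39 and adjusted p of 0.154, 0.318, 0.182 and 0.397.

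**Figure D4:**
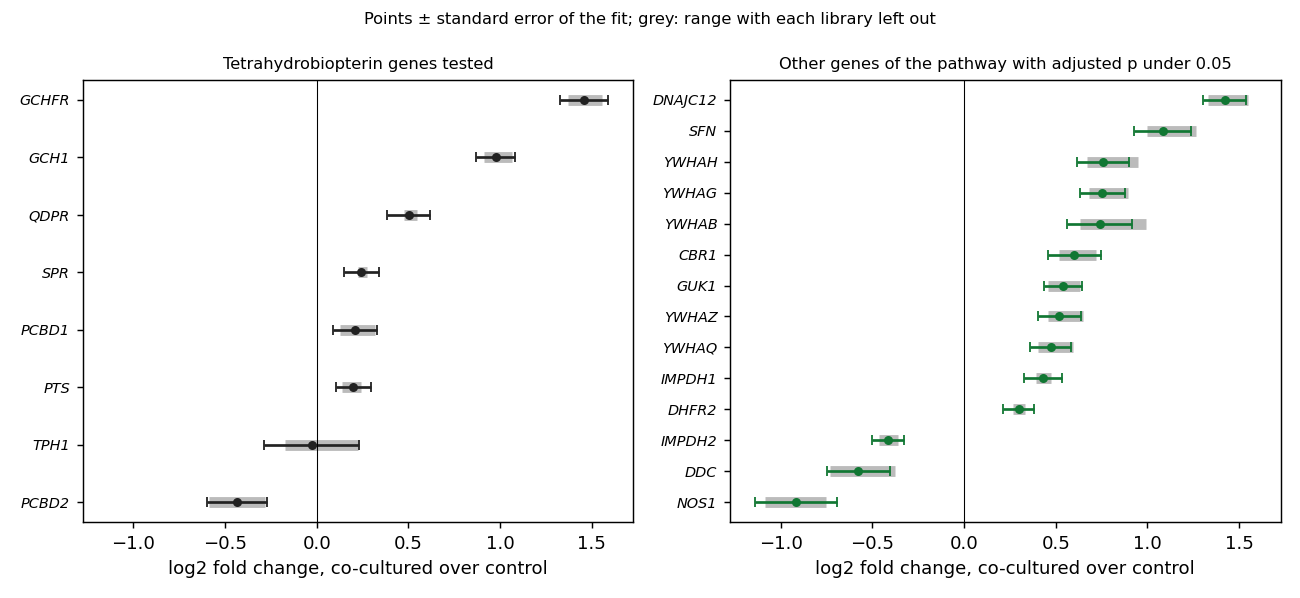
Log2 fold change (positive where the co-cultured group was higher) for the 8 tetrahydrobiopterin genes tested (left) and for the 14 other genes of the pathway with adjusted p under 0.05 (right), with bars for ± SE of the fit and grey bands for the range with each library left out. GCHFR at 1.46 and DNAJC12 at 1.42 lie farthest to the right, PCBD2 at −0.44 and NOS1 at −0.92 farthest to the left, and the band of TPH1 is the only one that crosses 0.

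The identity of the cells was checked by markers. Of 8 neuroendocrine markers, 7 had more than 3 reads in a library, and their summed level was 1733 to 2153 CPM in control and 2230 and 2352 CPM in the co-cultured libraries. CHGA had 1 read in all, and like TH and PRPF8 such a value is not read here as a lack of transcript. DDC is a member of this list as well, and it fell while the sum was higher in both co-cultured libraries. Of 12 endothelial markers, 9 had more than 3 reads in a library, none above 159, and TIE1, ROBO4 and EMCN had at most 3 in every library. Their summed level was 9.57 to 19.3 CPM in control and 12.9 and 13.1 CPM in the co-cultured libraries, so the ranges overlapped. ESAM was higher in the co-cultured cells, with 3, 4 and 6 reads in control against 21 and 14 after co-culture (adjusted p = 0.00666 in the edgeR fit). The other endothelial markers tested went in both directions, with log2 fold changes from −1.85 for TEK to 0.83 for PECAM1, and none was called. TEK had 31, 24 and 0 reads in control against 6 and 3 after co-culture. Whether endothelial RNA had a part in any result was not tested.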

How the data were processed

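RNA from NCI-H209 cells was sequenced from rRNA-depleted, directional libraries. Per the submitters' processing notes, CASAVA 1.8, STAR 2.6.1b, DESeq2 and GRCh38 were used. The authors deposited raw counts per gene and library as STAR's gene counting writes them, without strand and for each strand. Their summary table also held their fold changes and p-values, which were not used. Its mean normalized signal, deposited by the authors per group, equalled the expected-strand counts over median-ratio size factors to within 3.86e-08% for the 8 genes it lists, so those counts were used.

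Of the 64837 entries, 58780 were in GENCODE 29. Genes were filtered with filterByExpr, scaled by TMM and compared by edgeR 4.0.16 in R 4.3.3 with all 5 libraries and no covariate (biological coefficient of variation 10.2%). Steps were tested on simulated data. A count of 3 equals 0.157 to 0.194 CPM of a library's total, which covers counting error only. Members, gene lists and tests were chosen with earlier results of these data known. Named are the 9 genes, called genes of the pathway lists and sole enzymes of a step (some of these are not reported here), the gene overlapping GCHFR, and the 3 genes most like GCHFR. The regulators of nitric oxide synthases, PRPF8, INS, ASCL2, CD81, ESAM, TEK, PECAM1 and the genes listed at 0 were named after their values were seen. Alternatives were RLE and upper-quartile scaling, 2 filters, DESeq2 1.42.0, counts without strand, a replicate block and leaving out each library.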

Additional observations from a re-analysis of the deposited data

How the results depend on the processing

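With each library left out in turn, the genes called numbered 2734 to 9897, the other pathway genes called 4 to 20 and the tetrahydrobiopterin genes called 2 to 6. Under the remaining settings the counts stayed within 1.5 times. All genes called ran from 4824 to 8107, and their share of those tested from 18.7% to 37.2%. The tetrahydrobiopterin genes called ran from 2 to 4, with PCBD2 added under upper-quartile scaling and under the filter of at least 1 count in any library. Without strand, GCH1, SPR and QDPR were called and GCHFR was not tested. DHFR2 lost its call under upper-quartile scaling and DDC without strand. DNAJC17 changed sign without strand, to a log2 fold change of 0.15, or 0.14 with the filter of at least 1 count, and was called in neither. The log2 fold change of GCHFR stayed between 1.38 and 1.50 under the 6 other settings planned.

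With the replicate block, 4824 genes (23.7% of those tested), 16 other pathway genes and 2 tetrahydrobiopterin genes (GCHFR and GCH1) were called. DHFR2 and IMPDH1 lost their call there (adjusted p = 0.0957 each by edgeR's quasi-likelihood test). Nothing in the labels ties equal numbers to a shared culture. The deviations of same-numbered libraries from their group means correlated at −0.11 and −0.07. With 2 co-cultured libraries these deviations mirror each other, so the correlations cannot decide whether cultures were shared. With 3 libraries against 2, low counts limit NOS3 and TPH1 most, since 1 library sets their spread.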
